A study of Drosophila melanogaster with 3 samples.

Results

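The mitochondrial ribosomal protein genes of Drosophila melanogaster were examined for binding of croc (crocodile), a transcription factor with a forkhead DNA-binding domain. The genes were all protein-coding genes of the Ensembl BDGP6 annotation whose symbol begins with mRpL or mRpS and a digit, which gave 73 of the 13945 protein-coding genes on the chromosome arms. Of these, 47 encode proteins of the large subunit (mRpL) and 26 encode proteins of the small subunit (mRpS). Binding was measured by chromatin immunoprecipitation and sequencing (ChIP-seq) in 3 biological replicates of 1 group. That group was whole embryos aged 0 to 18 h of a transgenic strain that expresses a croc-eGFP fusion, in which eGFP is an enhanced green fluorescent protein tag, with an antibody against GFP and chromatin sheared to 200 to 800 bp. Control libraries were not analysed here, and whole embryos mix all cell types, so strong binding in a few cells and weak binding in many cannot be told apart.

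The mitochondrial ribosome translates the few proteins encoded by mitochondrial DNA, which are core subunits of the respiratory chain and of ATP synthase. Its own proteins are encoded in the nucleus, made in the cytoplasm and imported. The large subunit carries the peptidyl transferase centre and the exit tunnel, and the small subunit decodes the messenger RNA. The gene croc is known for its role in the embryonic head, and the mutant is named for the shape of the larval head skeleton.

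The deposited peak lists held 3198, 2433 and 1822 thresholded peaks in replicates 1, 2 and 3. The conservative list of the series held 3650, of which 3644 lay on the 6 arms. Thresholded and conservative lists keep peaks whose rank repeats between paired lists, as measured by the irreproducible discovery rate (IDR), and ranked lists hold all peaks that were ranked. Signal values are the authors' own value for each peak, on a scale not given in the sources used here. They were used only to order peaks within a list, rank 1 being the strongest. The conservative list was made from more than 1 of these replicates, without a label of which, so that sharing between it and the replicate lists is partly built in.

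Of the 73 mitochondrial ribosomal protein genes, 17 (23.3%, exact 95% interval 14.2 to 34.6%) had a conservative croc-eGFP summit within 500 bp of a transcription start site (TSS). Over all protein-coding genes the share was 12.9% (1795 genes). At 9 of the 17 the TSS of the mitochondrial ribosomal protein gene was the nearest to the summit: mRpS10, mRpL41, mRpL23, mRpL32, mRpS7, mRpL39, mRpL53, mRpS26 and mRpS6. At the other 8 a neighbouring gene started closer: mRpS23, mRpL24, mRpL20, mRpS2, mRpL37, mRpL34, mRpL11 and mRpS21. When each peak was given only to the nearest protein-coding TSS within 10 kb, 9 mitochondrial ribosomal protein genes had a peak (12.3%, interval 5.80 to 22.1%), against 15.5% of all protein-coding genes (2166 genes). Relative to all protein-coding genes, the share was thus higher by distance to any start and lower by nearest gene. Each of the 9 genes had 1 peak. The 9 summits all lay at the promoter, 56 to 175 bp from the TSS (median 124 bp; 100%, interval 66.4 to 100%), while 45.8% of all assigned peaks (1478 of 3225) had their summit within 500 bp of the TSS. Each peak went to the nearest start, and a median of 1522 bp of sequence lay nearest to the starts of the 73 genes. Over all protein-coding genes that median was 4246 bp, so the closeness of the 9 summits was partly set by the assignment rule.

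Sequences at the summits are shown for 8 of the 17 sites, as examples of the base composition and the forkhead words described later. The 8 are a selection rich in such words. Those of mRpS10, mRpL20, mRpL32 and mRpS6 hold one and the others do not, while 5 of all 17 sites do. The upstream sequences of mRpL12 and mRpL13, which had no summit in any replicate's ranked list, follow. All sequences are from RefSeq's Release 6 assembly (the assembly also called dm6), read 5′ to 3′ on the plus strand. The sites are in the order of peak strength. Capitals mark every run of at least 6 bases made only of A and T. Each window at a site reaches 50 bases to either side of the summit, except at mRpL23. There the summit itself lies in exon sequence, which is not shown, and the stretch printed ends just before it. The windows of mRpL12 and mRpL13 are not centred on a summit. They lie wholly upstream of the TSS, which is at 8956791 on the plus strand for mRpL12 and at 18859248 on the minus strand for mRpL13.
mRpS10 (chr3R:15229491-15229591): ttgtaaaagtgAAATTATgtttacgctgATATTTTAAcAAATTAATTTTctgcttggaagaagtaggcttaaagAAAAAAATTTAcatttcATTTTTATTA
mRpS23 (chr2L:13835414-13835514): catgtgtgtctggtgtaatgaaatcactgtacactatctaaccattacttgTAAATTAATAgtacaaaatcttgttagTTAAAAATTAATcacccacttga
mRpL23 (chr3L:2373549-2373596): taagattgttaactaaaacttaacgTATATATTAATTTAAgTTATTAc
mRpL24 (chr2L:4945452-4945552): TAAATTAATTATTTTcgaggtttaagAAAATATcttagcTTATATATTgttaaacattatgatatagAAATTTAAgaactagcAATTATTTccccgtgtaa
mRpL20 (chr3L:13018114-13018214): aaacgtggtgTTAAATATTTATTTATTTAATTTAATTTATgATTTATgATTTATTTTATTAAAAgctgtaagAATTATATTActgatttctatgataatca
mRpL32 (chr3R:31252723-31252823): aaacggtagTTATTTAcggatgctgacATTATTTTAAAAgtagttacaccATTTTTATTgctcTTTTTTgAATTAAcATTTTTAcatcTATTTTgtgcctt
mRpL39 (chr3L:14999758-14999858): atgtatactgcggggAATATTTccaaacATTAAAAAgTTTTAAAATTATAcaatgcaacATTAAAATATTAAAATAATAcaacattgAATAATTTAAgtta
mRpS6 (chr3L:4364395-4364495): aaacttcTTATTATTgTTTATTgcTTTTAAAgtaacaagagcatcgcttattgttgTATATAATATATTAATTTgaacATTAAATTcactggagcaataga
mRpL12 (chr3L:8956640-8956740): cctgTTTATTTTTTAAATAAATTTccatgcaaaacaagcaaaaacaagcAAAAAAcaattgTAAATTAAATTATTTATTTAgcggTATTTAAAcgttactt
mRpL13 (chr2L:18859299-18859399): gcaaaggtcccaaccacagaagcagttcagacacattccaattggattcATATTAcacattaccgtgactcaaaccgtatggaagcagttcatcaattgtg
In these sequences, runs of A and T took up 47.5% of the bases at mRpS10, 21.8% at mRpS23, 61.4% at mRpL20 and 57.4% at mRpL39. The upstream sequence of mRpL12 reached 53.5% without a summit, and that of mRpL13 had 5.94%.

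Of the 26 strongest peaks of the conservative list, 4 lay within 500 bp of the start of a mitochondrial ribosomal protein gene. The cut at 26 is the rank of the fourth of these sites and was set after seeing the data. Among the first 100 peaks there were the same 4 sites, among the first 1000 there were 8, and among all 3644 there were 17. The strongest was at mRpS10, which encodes a protein of the head of the small subunit. Its summit at 15229541 on 3R had a signal of 2330 and rank 7 of 3644, and lay 124 bp upstream of the mRpS10 TSS. In the ranked lists its signal was 967.8 in replicate 1, 857.5 in replicate 2 and 504.5 in replicate 3, which placed it at ranks 6, 8 and 8. The neighbour Art3, an arginine methyltransferase gene, starts 133 bp from the same summit on the other strand, so the distances to the genes differed by 9 bp. In replicate 2 the summit shifted by 9 bp and the nearest start became that of Art3.

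The peak at mRpL41, a protein of the large subunit with no bacterial counterpart, had its summit at 15217757 on 2R, with a signal of 2232 and rank 8. Its signals in replicates 1, 2 and 3 were 840.0, 868.5 and 518.2 (ranks 11, 7 and 6), and mRpL41 was the nearest gene in every list. The summit lay 140 bp upstream of the mRpL41 TSS, and the head-to-head neighbour CG8079 started 622 bp away. At mRpS23, which encodes a small-subunit protein, the summit at 13835464 on 2L had a signal of 1740 and rank 19. It lay 392 bp upstream of the mRpS23 TSS and 100 bp from that of CenG1A, a gene for a GTPase-activating protein of the Arf family, and was therefore counted to CenG1A in every list. Its replicate signals were 707.8, 614.4 and 408.9, at ranks 17, 25 and 16.

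At mRpL23, whose protein sits at the mouth of the exit tunnel, the summit at 2373599 on 3L had a signal of 1511 and rank 26. The annotation gives mRpL23 3 starts. The summit lay 79 bp downstream of the nearest of them, in an untranslated exon of the gene, and 129 bp from the start of CG9004. Its signals in replicates 1, 2 and 3 were 605.9, 573.4 and 331.5 (ranks 27, 27 and 29). The 4 sites thus held nearly the same places in each replicate's ranked list, all within its first 29 peaks.

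**Figure D1:**
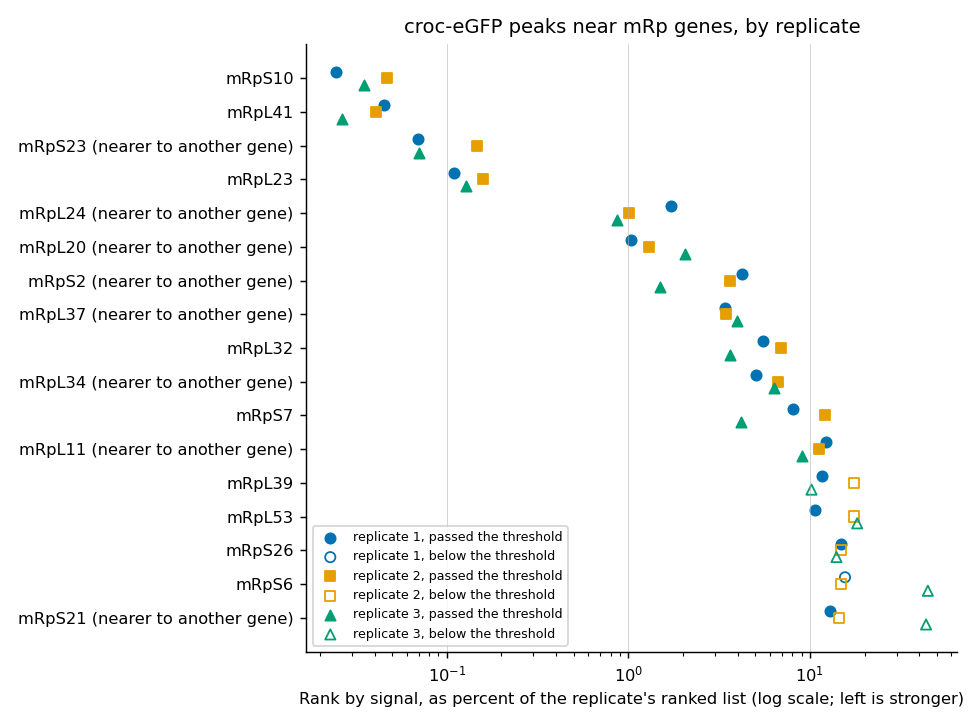
Rank by signal of the summit at each of the 17 sites, as a percent of each replicate's ranked list (horizontal log scale, left is stronger), for replicate 1 (circles), replicate 2 (squares) and replicate 3 (triangles), filled where the peak passed the threshold in that replicate. The upper 4 sites lie left of all the others in every replicate, the first 12 sites are filled in all 3 replicates, and the lowest 5 are filled in replicate 1 or in none.

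After these, the next site ranked 245 in the conservative list. This and the following 7 sites also passed the threshold in all 3 replicates. mRpL24, also a protein near the exit tunnel, had a signal of 625.1 at rank 245, with its summit (4945502 on 2L) 141 bp from mRpL24 and 77 bp from betaggt-I, a geranylgeranyl transferase subunit gene. Its replicate signals were 192.4, 272.8 and 162.5, and mRpL24 was the nearest gene in replicates 1 and 3. mRpL20, whose bacterial counterpart acts early in assembly of the large subunit, had a signal of 612.7 at rank 255 and replicate signals of 249.0, 242.2 and 106.5. That summit lay 297 bp from mRpL20 and 102 bp from Icmt, an isoprenylcysteine methyltransferase gene.

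The site at mRpS2, a small-subunit protein, had a signal of 390.2 at rank 603, 144 bp from mRpS2 and 78 bp from Mon1, which acts in activation of Rab7. Its replicate signals were 112.2, 142.3 and 124.8. At mRpL37, a large-subunit protein particular to mitochondria, the signal was 352.3 at rank 715, with the summit 171 bp upstream of the mRpL37 TSS. Its replicate signals were 127.8, 146.0 and 75.5, and mRpL37 was the nearest gene in replicate 1.

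mRpL32 was the nearest gene to its summit in every list. Its protein has to be cleaved by a mitochondrial protease before assembly in yeast. The summit, 99 bp upstream of the mRpL32 TSS and 165 bp from qless, a coenzyme Q synthesis gene, had a signal of 279.9 at rank 1039. The replicate signals were 92.2, 94.1 and 79.9 (ranks 1342, 1194 and 826). The site at mRpL34, a small protein of the large subunit, had a signal of 251.7 at rank 1208, 221 bp from mRpL34 and 163 bp from Dg, the dystroglycan gene, with replicate signals of 98.2, 96.6 and 56.2.

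At mRpS7, a protein of the small-subunit head, the signal was 205.5 at rank 1578. The summit lay 162 bp from mRpS7 and 238 bp from Cdk1, the mitotic kinase gene. The replicate signals were 68.3, 62.8 and 73.7, but the summit moved by 95 bp in replicate 1 and by 115 bp in replicate 2, and in both Cdk1 became the nearest gene. At mRpL11, a protein of the stalk base, the signal was 169.7 at rank 2011. That summit lay in an untranslated exon of HtrA2, a mitochondrial protease gene, 8 bp from its TSS and 134 bp from mRpL11. The replicate signals were 47.9, 66.9 and 44.7.

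The 5 weakest sites had conservative signals between 113.7 and 132.2, below the median of 201 over all promoter peaks. None passed the threshold in replicates 2 or 3. mRpL39, a large-subunit protein particular to mitochondria, had a signal of 132.2 at rank 2687. Its summit was 142 bp from mRpL39 and 143 bp from Prosbeta2, a proteasome core gene, and the replicate signals were 50, 48.4 and 41.1. mRpL53 had a signal of 129.1 at rank 2742 and replicate signals of 54.4, 48.2 and 29.6. Its TSS is also that of CG33155, so the summit, 56 bp away in an intron of AGO1, belongs to both genes equally, and the order of gene identifiers assigned it to mRpL53.

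mRpS26, a small-subunit protein particular to mitochondria, had a signal of 124.0 at rank 2837, 175 bp from its TSS and 255 bp from CG13698. The replicate signals were 41.0, 54.5 and 33.8. mRpS6, whose bacterial counterpart lies on the platform of the small subunit, had a signal of 115.1 at rank 2996, 105 bp from its TSS and 343 bp from Cip4. Its replicate signals were 39.2, 54.7 and 21.6, and it passed the threshold in no replicate, although it is in the conservative list. mRpS21 had a signal of 113.7 at rank 3014, 182 bp from its TSS and 115 bp from Droj2, a DnaJ-type co-chaperone gene, with replicate signals of 46.1, 55.4 and 21.7. In replicate 3 the summits at mRpS6 and mRpS21 ranked 10140 and 9897, far below their ranks of 2531 and 2481 in replicate 2.

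All 17 sites lay beside a gene that starts head to head with the mitochondrial ribosomal protein gene, on the other strand and within 1000 bp. At 15 of the 17 the summit lay between the closest pair of starts. The exceptions were mRpL23, where the closest starts are 24 bp apart, and mRpL11, where the summit passed the HtrA2 start by 8 bp. mRpL23 and HtrA2 have further annotated starts, and counting those, the summit lay between a pair of opposed starts at all 17 sites. The nearest gene was not the same in every list at 5 sites (mRpS10, mRpL24, mRpL37, mRpS7 and mRpL39), where the distances to the neighbouring starts differed by 1 to 76 bp.

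**Figure D2:**
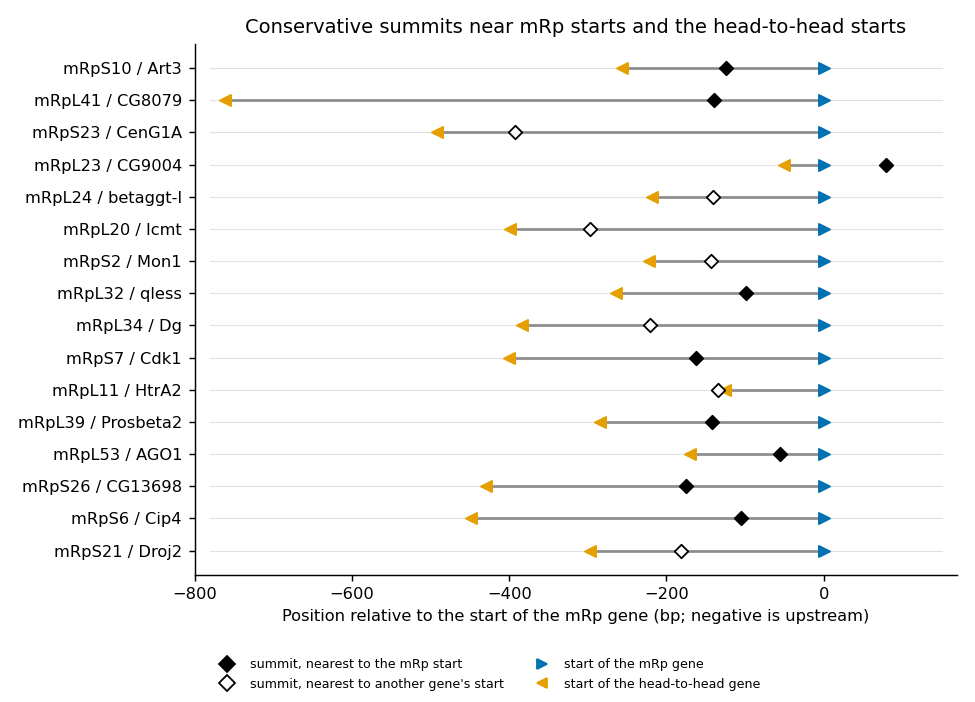
Position of the conservative summit (diamonds) at 16 of the 17 sites, mRpL37 not being drawn, along the interval between the start of the mitochondrial ribosomal protein gene (right-pointing triangle, at 0) and the head-to-head start (left-pointing triangle), in bp, negative being upstream, with sites in order of peak strength from the top. For genes with several starts, the start nearest to the summit is drawn. Filled diamonds are the 9 summits nearest to the mitochondrial ribosomal protein gene and open diamonds the 7 drawn summits nearest to its neighbour.

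In the thresholded lists of the replicates, the number of mitochondrial ribosomal protein genes nearest to a peak was 8, 3 and 6 for replicates 1, 2 and 3 (mean 5.67 ± 2.52 SD, n = 3). These are 11.0%, 4.11% and 8.22% of the 73 genes, against 14.6%, 12.0% and 9.50% of all protein-coding genes. Within 500 bp of any start the numbers were 16, 13 and 12 genes, or 21.9%, 17.8% and 16.4% (mean 18.7% ± 2.85 SD, n = 3), against 12.0%, 10.4% and 8.61% of all protein-coding genes (mean 10.3% ± 1.71 SD, n = 3). Against all protein-coding genes without weighting, the share of mitochondrial ribosomal protein genes was the higher in each replicate by this count and the lower in each replicate by nearest gene. Shares weighted to gene length and spacing are given below. mRpL23, mRpL32 and mRpL41 were nearest to a peak in all 3 replicates.

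The 12 strongest sites were the ones that repeated. Their 12 genes had a thresholded summit within 500 bp in all 3 replicates, while 0 genes had one in 2 replicates, 5 in 1 and 56 in none. The same tally over all protein-coding genes is not given, so this split has no background here. Of the 17 conservative summits, 12 (70.6%) had a summit within 250 bp in all 3 thresholded lists, against 51.0% of the 1478 conservative summits at promoters. Of the 9 assigned to a mitochondrial ribosomal protein gene, 5 did (55.6%). mRpS22, a small-subunit gene singled out after its values were seen, was the only one with a thresholded replicate summit near its start and no conservative one. Its strongest ranked signals were 45.4, 77.6 and 28.5 in replicates 1, 2 and 3, and the peak passed in replicate 2.

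Outside these sites, 33 mitochondrial ribosomal protein genes had a summit within 500 bp in a ranked list of at least 1 replicate but in no thresholded or conservative list. Of these, 8 had one in all 3 replicates: mRpL4, mRpL16, mRpL21, mRpL27, mRpL47, mRpL48, mRpS18B and mRpS31. A further 11 had one in 2 replicates and 14 in 1. Their signals ran from 14.1 to 44.9 in replicate 1 (median 21.2, 21 genes), from 20.6 to 39.1 in replicate 2 (median 26.6, 18 genes) and from 17.2 to 42.4 in replicate 3 (median 24.2, 21 genes). They overlapped those of the 5 weakest conservative sites in replicates 1 and 3 and lay below them in replicate 2. In the ranked lists as a whole, 53.4%, 49.3% and 53.4% of the mitochondrial ribosomal protein genes had a summit within 500 bp (mean 52.1% ± 2.37 SD, n = 3). Of all protein-coding genes, 39.2%, 32.8% and 36.6% did (mean 36.2% ± 3.24 SD, n = 3). Those shares are for each replicate alone. For the 33 genes and their split by number of replicates, no such share over all protein-coding genes is given.

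The remaining 22 genes had no summit within 500 bp in any list of any replicate. They were mRpL2, mRpL12, mRpL13, mRpL14, mRpL15, mRpL22, mRpL28, mRpL30, mRpL33, mRpL36, mRpL38, mRpL45 and mRpL46 of the large subunit and mRpS9, mRpS11, mRpS17, mRpS18A, mRpS18C, mRpS28, mRpS30, mRpS33 and mRpS34 of the small subunit. This group holds core proteins shared with bacteria, such as mRpL2 beside the peptidyl transferase centre and mRpL12 of the stalk, and proteins particular to mitochondria, such as mRpL38 and mRpL45. The share of all protein-coding genes with no summit in any list is not given, so the count of 22 has no background here.

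Both subunits had bound genes. Of the large-subunit genes, 10 of 47 (21.3%, exact interval 10.7 to 35.7%) had a conservative summit within 500 bp, and of the small-subunit genes 7 of 26 (26.9%, interval 11.6 to 47.8%). By nearest gene the counts were 5 of 47 (10.6%) and 4 of 26 (15.4%). The intervals overlap by both counts. By chromosome arm, 4 of 12 genes on 2L, 3 of 12 on 2R, 5 of 17 on 3L and 5 of 21 on 3R had a conservative summit within 500 bp. On X, 0 of 11 did (exact interval 0 to 28.5%), and chromosome 4 holds none of the genes. Over all protein-coding genes the shares were 12.9% on 2L, 11.7% on 2R, 13.8% on 3L, 13.9% on 3R and 11.9% on X, so the interval on X includes the share of all genes there.

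Head-to-head starts were common in the family. Of the 73 genes, 53 (72.6%) had a protein-coding gene starting on the other strand within 500 bp, against 3815 (27.4%) of all protein-coding genes. Of the 53, 16 (30.2%) had a conservative summit within 500 bp, against 26.5% of all head-to-head genes. Of the 20 others, 1 did (5%), against 7.74% of all genes without such a neighbour. That 1 gene was mRpL41, whose opposed start is 762 bp away. The difference between mitochondrial ribosomal protein genes and all protein-coding genes was thus smaller within each arrangement than overall.

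The distance between the opposed starts was related to the counts. With 200 to under 500 bp between them, 13 of 31 mitochondrial ribosomal protein genes (41.9%, exact interval 24.5 to 60.9%) had a summit within 500 bp, against 32.3% of 2303 genes overall. With under 100 bp between them, 1 of 18 did (5.56%, interval 0.141 to 27.3%), the exception being mRpL23, against 17.9% of 831 genes overall. The 17 closely spaced genes without a summit include mRpL15, which starts 41 bp from CtIP, mRpL2, 64 bp from FoxK, and mRpS11, 57 bp from Ns1. With 100 to under 200 bp the counts were 2 of 4 (interval 6.76 to 93.2%), against 17.6% of all 675 such genes. With 500 to 1000 bp they were 1 of 5 (interval 0.505 to 71.6%), against 12.9% of all 1243 such genes. None of the 15 genes with no opposed start within 1000 bp had a summit (interval 0 to 21.8%), against 7.02% of all such genes. In every class of distance the interval for the mitochondrial ribosomal protein genes includes the share of all protein-coding genes.

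**Figure D3:**
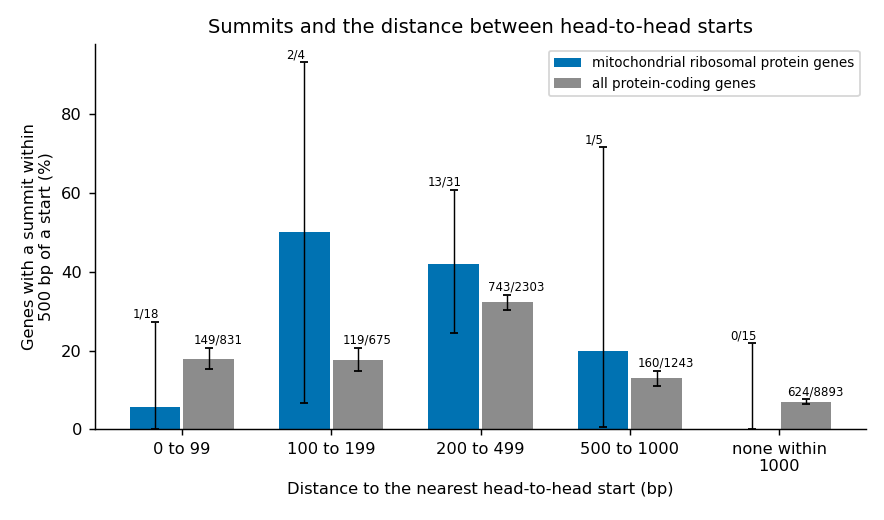
Percent of genes with a conservative summit within 500 bp of a start (vertical axis) by the distance in bp to the nearest head-to-head start (horizontal axis), for mitochondrial ribosomal protein genes (left bars) and all protein-coding genes (right bars), with the number of genes above each bar and exact 95% intervals as error bars. The left bars reach 41.9% (13 of 31) in the class from 200 bp, against 5.56% (1 of 18) under 100 bp and 0 of 15 with no such start.

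Weighting all protein-coding genes to the distribution of these distances among the 73 genes gave a share of 21.4% with a conservative summit within 500 bp. That corresponds to 15.6 genes, beside the 17 observed. In the replicates the weighted shares were 19.9%, 17.5% and 14.8%, beside 21.9%, 17.8% and 16.4% of the mitochondrial ribosomal protein genes. The genes are also short, with a median length of 909 bp against 2166 bp, and a median of 1522 bp of sequence lay nearest to their starts, against 4246 bp over all protein-coding genes. Weighted to these lengths, 9.95% of all protein-coding genes were nearest to a conservative peak, which corresponds to 7.27 genes beside the 9 observed. Weighted to head-to-head distance the share was 17.1%, or 12.5 genes, so that the 9 lay above the background for length and below the one for spacing. In the thresholded replicate lists, the nearest-gene share weighted to length was 7.69% ± 1.28 SD (n = 3). The mitochondrial ribosomal protein genes stood at 7.76% ± 3.45 SD there. For a conservative summit within 500 bp the share weighted to length was 14.2%, or 10.4 genes beside the 17 observed. The count of 17 within 500 bp was thus close to the background for genes with the same spacing of opposed starts, and above the one for genes of the same length.

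The summits lay in DNA rich in A and T. Within 50 bp of the 17 summits the median A+T content was 76.2% (44.6 to 84.2%), against 70.3% around all conservative summits at promoters. At positions 500 bp to the left and to the right of the 17 summits the medians were both 51.5%. The lowest value, 44.6%, was that of mRpL53, and the other 16 lay between 70.3 and 84.2%. Around the starts, the A+T content of the mitochondrial ribosomal protein genes peaked upstream of the TSS whether or not a summit was near. A rise of this kind was general: over the 1795 protein-coding genes near a summit, the mean was 68.1% at 160 bp upstream of the first start. It was 55.8% at 500 bp upstream and 52.1% at 500 bp downstream. In the promoter window from 250 bp upstream to 50 bp downstream of the first start, the median was 67.0% for the 17 genes near a summit and 64.2% for the 56 others. It was 64.8% for the 22 genes with no summit in any list, 63.3% for all 1795 protein-coding genes near a summit and 62.0% over all protein-coding genes. The part that base composition has in the binding was not tested.

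**Figure D4:**
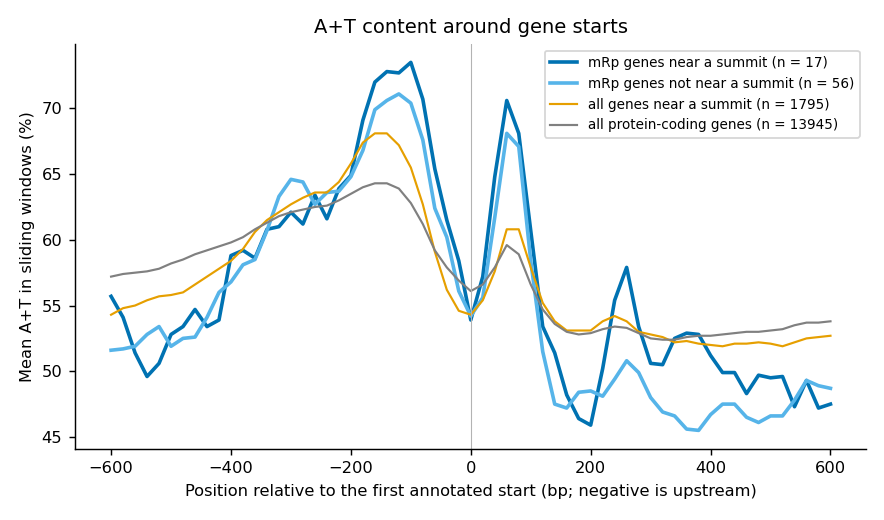
Mean A+T content in windows of 51 bp (vertical axis, percent) by position around the first annotated start (horizontal axis, bp), for the 17 mitochondrial ribosomal protein genes near a conservative summit, the 56 not near one, the 1795 protein-coding genes near one and all 13945 protein-coding genes. The first pair of lines rises above the others upstream of the start and again just downstream of it.

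Forkhead words were TATTTAC with its variant ending in T, and TGTTTAC with its variant ending in T, on either strand. Such a word lay within 50 bp of 5 of the 17 summits (29.4%), against 25.6% of all conservative summits at promoters. These were mRpS10, mRpL41, mRpL20, mRpL32 and mRpS6, of which all but mRpL20 are nearest to their summit. Over the 9 assigned summits the share was 4 of 9 (44.4%), and 11.1% when the window was cut to 25 bp on either side, which left only mRpL41. The share of all promoter summits in that narrower window is not given, and both shares rest on only 9 summits. The word TGTTTAC was found at mRpS10 alone (1 of 17, against 2.64% of promoter summits), centred 30 bp from the summit, and it can be read in the mRpS10 sequence printed above as the first capital run passes into lower case. mRpS23 and mRpL23, at ranks 19 and 26, held no forkhead word in this window. In the promoter window, 37 of the 73 genes held one (50.7%), against 46.2% of all protein-coding genes. The counts were 9 of 17 near a summit and 28 of 56 not near one, and mRpL12, whose upstream sequence is printed above, is among those without a summit.

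Other words were searched on both strands in the same windows. The E-box word CAGCTG was in the promoter window of 40 of the 73 genes (54.8%), against 17.7% of all protein-coding genes, at 9 of the 17 genes near a summit and 31 of the 56 others. The DNA replication-related element TATCGATA was in 15 (20.5%), against 9.36%. The core promoter word GGTCACAC was in 8 (11.0%), against 7.70%, and the E-box word CACGTG in 5 (6.85%), against 4.20%. One of the words TTATATAA, TTATGTAA, TTACATAA and TTACGTAA was in 6 promoter windows (8.22%), against 5.18%. The word GAGAGAG was in 1 (1.37%), against 5.87%. None of these words other than the forkhead ones lay within 50 bp of any of the 17 summits. They were rare at all 1478 conservative summits at promoters too, from 0.812% for GAGAGAG to 3.65% for CAGCTG and 3.72% for the TTATATAA group. A count of 0 among 17 is therefore near the share over all promoter summits.

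Of 44 other genes of mitochondrial gene expression, 4 (9.09%) were nearest to a conservative peak, against 15.5% of all protein-coding genes. Within 500 bp of a start, 5 (11.4%) had a summit, which is near the 12.9% over all protein-coding genes. These 5 were PNPase, an RNA-degrading enzyme gene (signal 1816, rank 15), SLIRP2 (1061, rank 70) and SLIRP1 (273.7), which encode RNA-binding proteins, mtSSB, the DNA-binding protein of mitochondrial replication (276.4), and RNaseZ, which trims transfer RNA (147.3). Among 8 mitochondrial translation factor genes, 15 mitochondrial transfer RNA synthetase genes and 2 mitochondrial ribosomal protein genes under other symbols (tko and bonsai), 0 had a conservative summit within 500 bp, counts too small to be set apart from that 12.9%. The symbols Ptcd3, DAP3 and mEFG2 matched no gene of the annotation.

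Set beside other multi-subunit machines, the mitochondrial ribosomal protein genes had fewer bound promoters than the cytoplasmic ribosomal protein genes, of which 43 of 92 (46.7%) had a conservative summit within 500 bp and 39 (42.4%) were nearest to one. In the replicates the shares within 500 bp were 18.7% ± 2.85 for the mitochondrial and 37.0% ± 9.48 for the cytoplasmic set (SD, n = 3). The order of the strongest peaks was the reverse: mRpS10 reached a signal of 2330 at rank 7, and the strongest of the cytoplasmic set, RpL7, reached 496.8 at rank 394. Respiratory chain and ATP synthase subunit genes had 12 of 87 within 500 bp (13.8%), with ND-MWFE strongest (486.5). Proteasome subunit genes had 6 of 48 (12.5%), with Rpn3 strongest (188.5). These 2 sets were taken by symbol and include variant copies with an added L, T or R, such as SdhAL, COX7AL, Prosalpha4T1 and Rpt3R. None of these copies had a summit within 500 bp, so the shares of both sets would be higher without them. No test of these differences was made, and the exact intervals of the last 2 sets overlap that of the mitochondrial ribosomal protein genes.

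**Figure D5:**
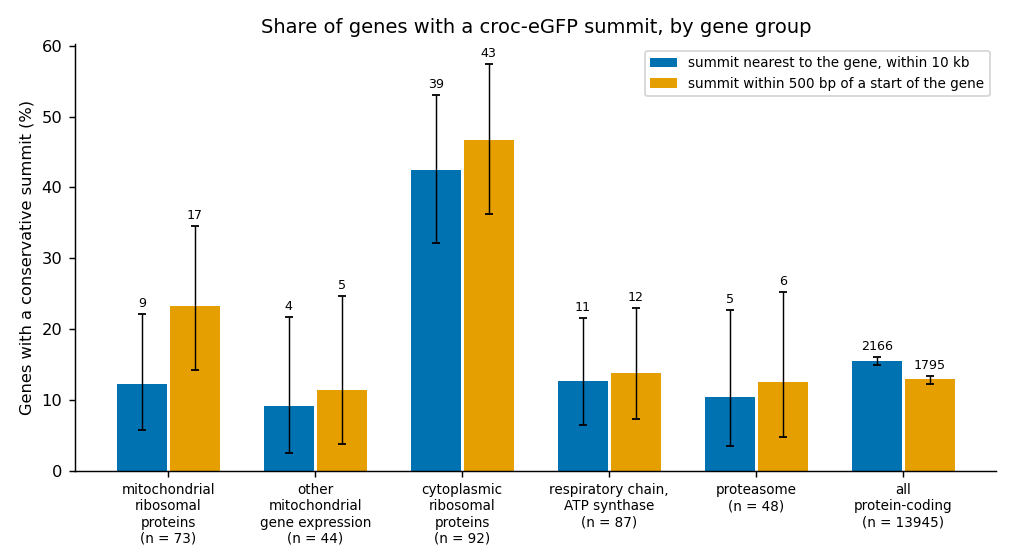
Percent of genes with a conservative croc-eGFP summit (vertical axis), by gene group, counted by nearest gene within 10 kb (left bars) and within 500 bp of a start (right bars), with the number of genes above each bar and exact 95% intervals as error bars. Mitochondrial ribosomal protein genes stand at 12.3 and 23.3%, cytoplasmic ribosomal protein genes at 42.4 and 46.7%, and all protein-coding genes at 15.5 and 12.9%.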

How the data were processed

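The samples were 3 ChIP-seq replicates, per the labels. Peak lists on dm6 were deposited by the authors; their aligner and caller are not given in the sources used. The signal deposited for each peak ordered the peaks of a list. The score deposited beside it is scaled from the IDR, and was at least 830 in the thresholded lists. Depth is unknown, since no reads were used.

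A summit was the start of a peak plus the deposited summit offset. Each conservative peak was assigned to the nearest protein-coding TSS (Ensembl BDGP6.54) within 10 kb, and, in a second count, to every gene with a TSS within 500 bp. Summits within 250 bp were shared. Head-to-head starts were sought within 1000 bp. All protein-coding genes were weighted by deciles of the length of sequence nearest to a gene, or by head-to-head distance, a weighting added after seeing the data. Words and A+T content were read from RefSeq Release 6. Intervals are exact (Clopper-Pearson) 95% binomial intervals that cover counting only. No test was made, since the series has 1 group. Work was done in Python 3.11.15 with pandas 2.3.3, numpy 2.4.6 and scipy 1.17.1, and the assignment was tested on simulated data.

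Named genes were the members with the 20 strongest and 5 weakest conservative peaks, those with a summit over 500 bp away, several peaks, or a near summit counted to a neighbour, and those in all 3 replicate lists without a conservative peak. The gene beside mRpL37 is not reported here. The genes and lists were chosen with earlier results of these data known. Alternatives were other distances, start rules, peak subsets, replicate lists, length measures and motif windows, and leaving out each replicate, which meant keeping conservative peaks shared with both other replicates.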

Additional observations from a re-analysis of the deposited data

How the results depend on the processing

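The 9 genes with a nearest conservative peak stayed at 9 with limits of 500, 1000 and 5000 bp and with starts of genes of any biotype. The count was 17 by any start within 500 bp, 3 in the list of replicate 2, 5 among the strongest 50% of peaks, and 5 among peaks shared with all 3 replicates. Leaving out each replicate in turn gave the same 5 every time, since no assigned peak was shared with exactly 2 replicates. That agreement is therefore not a separate check. By any start within 500 bp, replicate 1 alone gave 16, an alternative chosen after seeing the data. The share of assigned summits at the promoter, partly set by the assignment rule, was 100% under every alternative tried. The 5 genes with a peak shared by all replicates became 4 when shared meant within 100 bp. The median rank percentile of the 9 peaks, 43.3% from the top, was 19.7% for the thresholded peaks of replicate 1, 1.12% for replicate 2, 6.20% for replicate 3, and 1.14 to 1.59% leaving out each replicate, where only the stronger peaks are kept. The share of all protein-coding genes weighted to length, 9.95%, was 8.01% with deciles of gene body length, 15.5% with no weighting, 17.1% weighted by head-to-head distance (added after seeing the data) and 5.57 to 6.75% leaving out each replicate. The 44.4% of assigned summits with a forkhead word was 11.1% within 25 bp. It was 60.0% whichever replicate was left out, over the same 5 peaks each time. No paired analysis was possible because the series has 1 group.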
